A study of Homo sapiens with 30 samples.

Results

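The 9 proneural basic helix-loop-helix (bHLH) genes examined were NEUROG1, NEUROG2, NEUROG3, ATOH1, PTF1A, NEUROD1, NEUROD2, NEUROD4 and NEUROD6, out of 20033 protein-coding genes. They were chosen by name, and the window of each was its annotated gene body with 2 kb on both sides (build hg38). The series holds 30 CUT&RUN libraries of neural progenitor cells, a monolayer derived from the H9 human embryonic stem cell line, in 5 genotypes of RING1 and RNF2. In CUT&RUN an antibody brings a nuclease to the bound protein, and the DNA cut free around it is sequenced. Only wild-type cells are described here, with 2 libraries made with an antibody against RING1 and 2 with an antibody against RNF2, each represented by the authors' list of broad peaks. Each antibody has a long list and a short list. The 2 long lists share a number in the deposited names, as do the 2 short ones, and no label says which replicate a number stands for. The labels do not say whether the replicates were separate cultures. No edited genotype, H2AK119ub1 library or IgG library was analysed here.

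Proneural bHLH factors pair with the broadly expressed E proteins, bind the E-box CANNTG and switch on neuronal genes in progenitors. The neurogenins (NEUROG) and ATOH1 commit progenitors to a neuronal fate, and the NEUROD factors act later, in differentiating neurons. They also switch on Notch ligands, and Notch signalling in neighbouring cells induces HES repressors that hold proneural genes down. RING1 and RNF2 are the paralogous catalytic subunits of Polycomb repressive complex 1 (PRC1), which ubiquitinates histone H2A and keeps developmental regulators silent until a lineage needs them. CpG-rich promoters are a known recruitment site of some PRC1 forms.

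The long lists held 12891 RING1 and 16263 RNF2 peaks, and the short lists 659 RING1 and 5901 RNF2 peaks. Their median peak widths were 704, 973, 1320 and 779 bp, in the same order. The depth of the libraries is unknown, so a gene without a peak is one where none was called in that list, and it may still be bound. The cells were profiled in bulk, so a strong signal in part of the culture and a weak signal in all cells cannot be told apart. Peak lists hold no expression, so the labelled cell type was not checked by markers, and whether any member was transcribed was not measured.

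Promoter sequences are shown for 5 members that span the range of the data. NEUROG2 and NEUROD1 had peaks in all 4 lists, ATOH1 had the highest RING1 fold of the members in the long list, and NEUROD4 and NEUROD6 had no peak at the gene start. Each line gives the 250 bases before the annotated start, 5′ to 3′ in the direction of transcription, from RefSeq on GRCh38.p14, with each CpG dinucleotide in capitals. The positions are chr4:112516181-112516430 (minus strand) for NEUROG2, chr2:181680518-181680767 (minus) for NEUROD1, chr4:93828503-93828752 (plus) for ATOH1, chr12:55019724-55019973 (plus) for NEUROD4 and chr7:31340727-31340976 (minus) for NEUROD6.
NEUROG2: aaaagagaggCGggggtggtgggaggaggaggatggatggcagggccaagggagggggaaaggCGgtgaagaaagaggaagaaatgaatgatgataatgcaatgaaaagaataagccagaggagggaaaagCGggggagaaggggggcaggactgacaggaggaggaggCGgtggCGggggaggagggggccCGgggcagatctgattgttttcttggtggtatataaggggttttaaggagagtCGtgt
NEUROD1: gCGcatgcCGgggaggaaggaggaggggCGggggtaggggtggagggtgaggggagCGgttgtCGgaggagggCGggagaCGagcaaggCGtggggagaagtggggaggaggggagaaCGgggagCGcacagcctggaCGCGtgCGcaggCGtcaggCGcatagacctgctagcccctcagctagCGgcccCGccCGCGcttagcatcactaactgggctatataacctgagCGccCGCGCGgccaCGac
ATOH1: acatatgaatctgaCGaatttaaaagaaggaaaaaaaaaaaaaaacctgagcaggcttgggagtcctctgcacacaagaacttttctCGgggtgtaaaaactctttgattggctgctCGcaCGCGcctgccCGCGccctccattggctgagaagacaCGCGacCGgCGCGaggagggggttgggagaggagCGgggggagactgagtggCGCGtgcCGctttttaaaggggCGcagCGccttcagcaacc
NEUROD4: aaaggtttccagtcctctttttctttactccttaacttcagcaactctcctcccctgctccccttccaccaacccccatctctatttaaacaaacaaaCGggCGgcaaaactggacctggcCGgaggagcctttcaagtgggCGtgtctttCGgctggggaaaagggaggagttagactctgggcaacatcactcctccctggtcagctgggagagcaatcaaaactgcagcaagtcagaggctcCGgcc
NEUROD6: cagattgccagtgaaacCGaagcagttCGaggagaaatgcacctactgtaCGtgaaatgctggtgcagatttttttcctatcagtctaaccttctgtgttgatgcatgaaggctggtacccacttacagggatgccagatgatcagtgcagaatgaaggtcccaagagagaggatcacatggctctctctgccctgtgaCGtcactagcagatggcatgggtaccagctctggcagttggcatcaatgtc

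RNF2 was called at 8 of the 9 genes in both of its lists, and RING1 at 7 genes in its long list and at 2 in its short list. The 7 genes with RING1 in the long list also had RNF2 in both lists: NEUROG1, NEUROG2, NEUROG3, ATOH1, PTF1A, NEUROD1 and NEUROD2. NEUROG2 and NEUROD1 had peaks in all 4 lists, NEUROD6 had RNF2 alone, and NEUROD4 had no peak in any list. Over all protein-coding genes, RING1 was at 50.5% in the long list, 1.58% in the short list and 1.57% in both. RNF2 was at 60.7%, 25.2% and 23.9%, in that order. RNF2 in both lists together with RING1 in the long list was present at 21.9% of all genes, peaks in all 4 lists at 1.52%, and no peak in any list at 35.3%. No test was made of these shares, because the members are a short list chosen by name and 2 lists per antibody allow none over libraries. In ratio to the background share, the counts from the long lists were the least raised. The counts depended on the weaker peaks. Kept to a −log10 q of at least 5, the long lists had RING1 at 4 and RNF2 at 6 members, against 8.74% and 17.1% of all genes, and the short lists had RING1 at 0 and RNF2 at 2, against 0.0349% and 2.71%. Cut to 659 peaks each, the long lists had RING1 at 3 and RNF2 at 4 members, against 3.93% and 4.15% of all genes, and the short lists 2 and 4, against 1.58% and 3.78%.

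**Figure D1:**
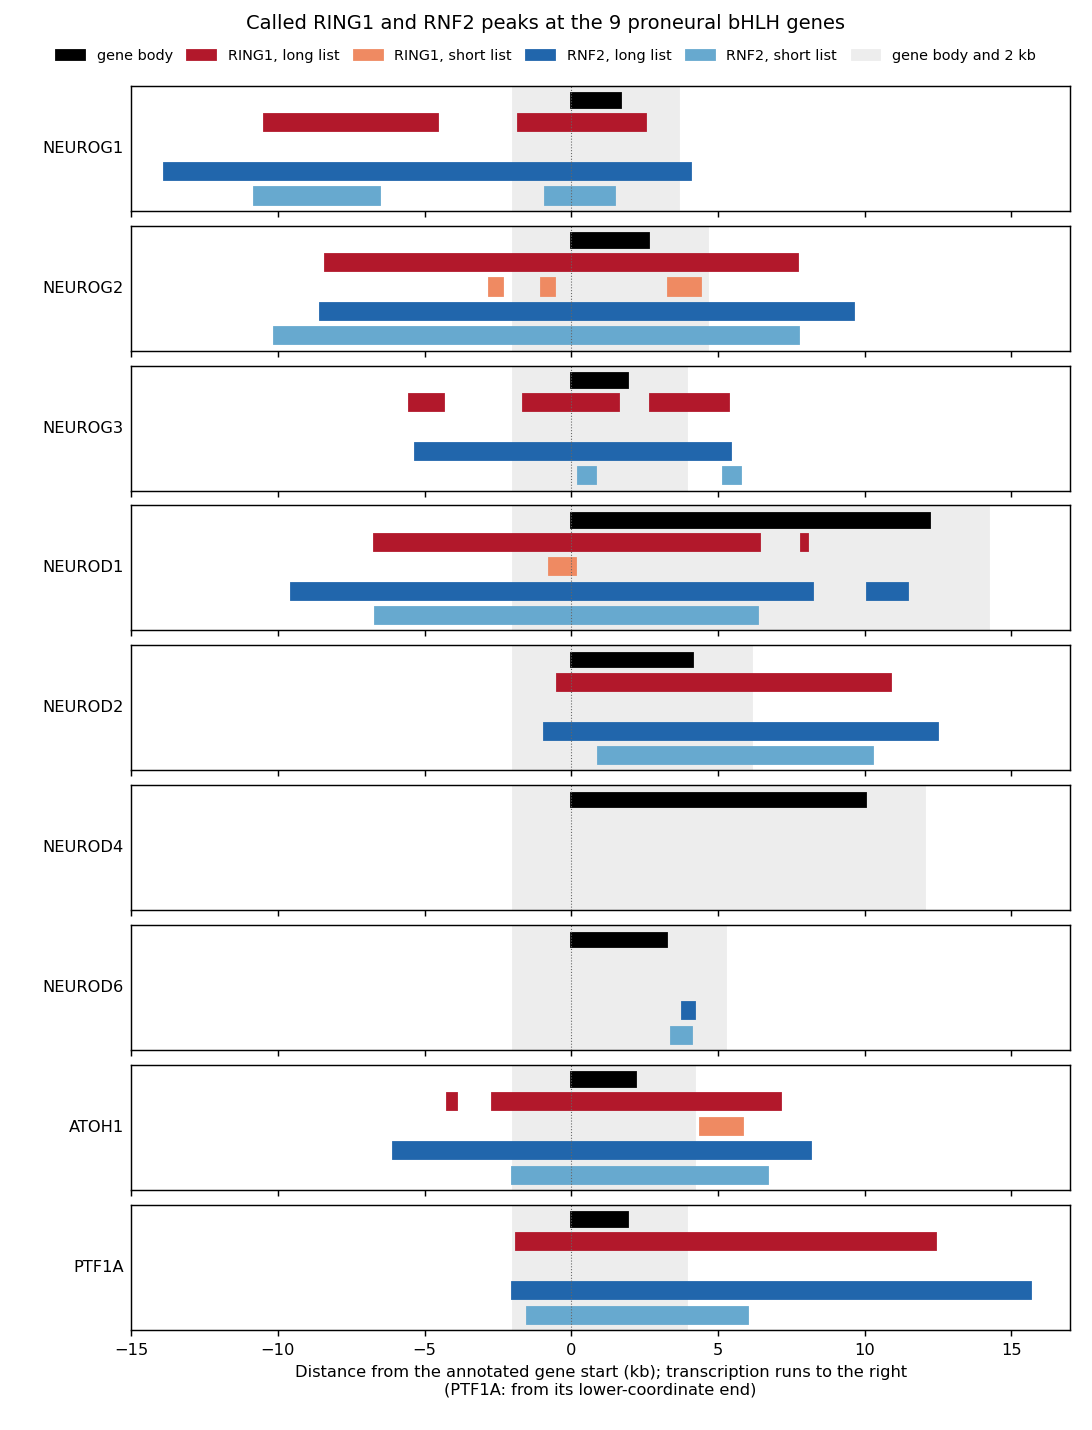
Called peaks at the 9 genes, plotted by distance from the annotated gene start in kb, with transcription to the right (PTF1A is plotted from its lower-coordinate end). Black bars are gene bodies, the grey area is the gene body with 2 kb on both sides, and coloured bars are peaks by antibody and list. At 7 genes RNF2 peaks of the long list, 10.8 to 18.2 kb wide, cover the gene start or the whole gene, whereas NEUROD6 has short RNF2 peaks past its end and NEUROD4 has none.

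The RNF2 peaks at 7 of the genes were wide. In the long list these peaks measured 17950 bp at NEUROG1, 18208 bp at NEUROG2, 10750 bp at NEUROG3, 14255 bp at ATOH1, 17671 bp at PTF1A, 17786 bp at NEUROD1 and 13438 bp at NEUROD2. All 7 exceeded 10 kb, a limit chosen after the widths were seen, and 1.82% of all protein-coding genes had an RNF2 peak of at least 10 kb in the long list. In the short list the widths spread from 614 bp at NEUROG3 to 17903 bp at NEUROG2, and 2 members, NEUROG2 and NEUROD1, passed 10 kb, against 1.12% of all genes. RING1 peaks of the long list passed 10 kb at NEUROG2, PTF1A, NEUROD1 and NEUROD2, 4 of 9 members, against 1.27% of all genes. A wide peak over a short gene covers much of the window, as the plot of covered window bases shows. RNF2 of the long list covered 100% of the windows of NEUROG1, NEUROG2, NEUROG3, ATOH1 and PTF1A, which 0.923% of all protein-coding genes reached.

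**Figure D2:**
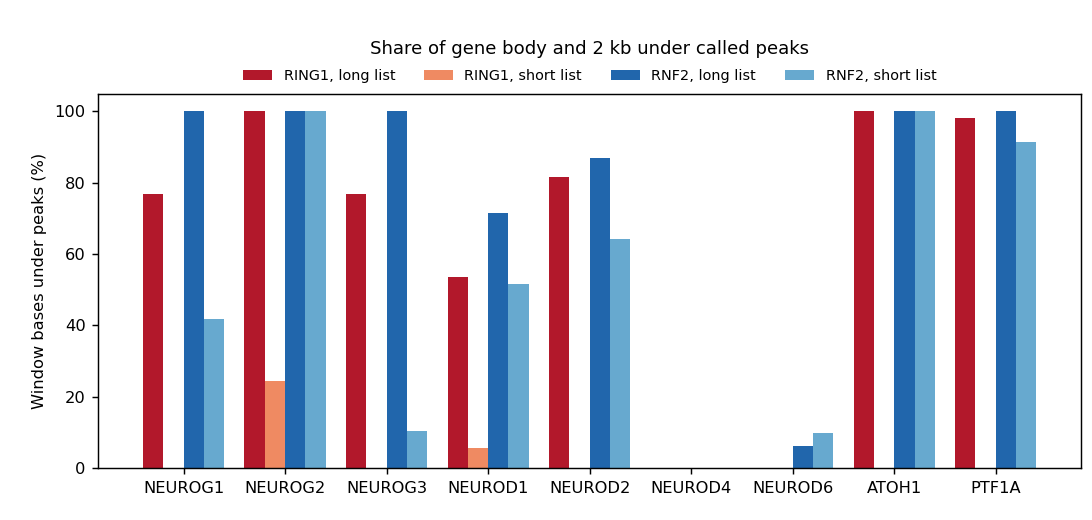
Share of the bases of each gene body with 2 kb on both sides that lie under called peaks, in percent, with 1 bar per list. RNF2 of the long list covers 71.6% to 100% of the windows of the 7 genes with wide peaks, and 6.13% at NEUROD6, while RING1 of the short list covers 24.4% at NEUROG2 and 5.65% at NEUROD1.

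Among the determination factors, NEUROG2 had the highest RNF2 fold of the members in both lists, and peaks in all 4 lists. NEUROG2 on chromosome 4 (112513516 to 112516180) drives neurogenesis of excitatory neurons in the cortex. Its fold enrichment over background, as the authors' peak caller gave it, was 9.25 (long list) and 4.64 (short list) for RING1, and 15.1 (long) and 6.13 (short) for RNF2. Fold enrichments rank peaks within a list and are not compared between lists. Of all genes with an RNF2 peak, 0.609% had at least this fold in the long list and 4.65% in the short list. The RNF2 peak of the long list ran from 8561 bp before the start to 9646 bp after it, and that of the short list from 10137 bp before to 7765 bp after. RING1 of the long list covered nearly the same stretch, from 8399 bp before to 7716 bp after the start. RING1 of the short list was called as 3 short peaks inside this domain, of 1140, 489 and 471 bp, none of which covered the gene start. The domain also overlaps NEUROG2-AS1 and the uncharacterised LOC124900760, neither of which is annotated as protein-coding.

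NEUROG1 had 2 separate RING1 and RNF2 centres under 1 RNF2 peak. NEUROG1 on chromosome 5 (135534282 to 135535964) specifies cranial sensory neurons, as known from mouse. Its window held RING1 at 5.82-fold in the long list, and RNF2 at 8.70-fold (long) and 4.86-fold (short), and the nearest RING1 peak of the short list lay 495 kb from the gene. The RNF2 peak of the long list reached 13869 bp upstream of the start. Within it, RING1 of the long list formed a peak over the gene start and another from 10466 to 4556 bp upstream, with a fold enrichment of 7.75, higher than that at the gene. RNF2 of the short list likewise had a peak at the start and another from 10823 to 6526 bp upstream, with a fold enrichment of 6.56 against 4.86 at the gene. In either list the upstream peak, outside the 2 kb window, was the stronger of the pair.

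NEUROG3 had the weakest signal of the 3 neurogenins. NEUROG3 on chromosome 10 (69571485 to 69573422) specifies endocrine cells of the pancreas and gut. RING1 reached 4.63-fold in the long list, and RNF2 4.67-fold (long) and 3.79-fold (short), and the short list had no RING1 peak within 5826 kb. The RNF2 fold of the long list was reached or passed by 39.3% of all genes with an RNF2 peak, so by strength NEUROG3 lay in the middle of the list. By width its 10750 bp peak stood among the widest 1.77% of RNF2 peaks of the long list. In the short list that stretch held only short RNF2 peaks, of 614 bp within the gene body and of 618 bp at the far edge.

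ATOH1 ranked next to NEUROG2. ATOH1 on chromosome 4 (93828753 to 93830964) specifies cerebellar granule neurons, inner ear hair cells and secretory cells of the gut. RING1 reached 9.54-fold there in the long list, and RNF2 13.5-fold (long) and 5.58-fold (short). The RNF2 peaks covered its whole window in both lists, and RING1 of the long list did so too. The window held no RING1 peak of the short list, but a peak of 1473 bp with a fold enrichment of 4.66 lay 2172 bp past the gene end, 172 bp outside the window. That peak lies inside the RNF2 peaks of both lists, so the count of 2 genes for RING1 in the short list rests on where the window ends.

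PTF1A, on chromosome 10 (23192312 to 23194245), specifies GABAergic neurons of the cerebellum and dorsal horn, and the pancreas. RING1 reached 5.13-fold in the long list, and RNF2 7.73-fold (long) and 4.21-fold (short). All 3 peaks covered the whole gene body and extended mainly past the higher-coordinate end, by 10497 bp for RING1 of the long list, 13717 bp for RNF2 of the long list and 4093 bp for RNF2 of the short list. The long-list peaks run into the body of C10orf67, whose nearer end lies 7.67 kb from PTF1A, and were the only member peaks to reach another protein-coding gene or its 2 kb. No RING1 peak of the short list lay within 716 kb.

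The 4 NEUROD genes differed among themselves, with wide RNF2 peaks at NEUROD1 and NEUROD2, short ones at NEUROD6 and none at NEUROD4. NEUROD1 on chromosome 2 (181668295 to 181680517) drives terminal differentiation and survival of granule neurons and of pancreatic beta cells. RING1 reached 6.99-fold (long list) and 4.50-fold (short list) there, and RNF2 10.3-fold (long) and 4.83-fold (short). Its main peaks spanned the gene start, from 6722 bp before to 6439 bp after it for RING1 of the long list, from 754 bp before to 162 bp after for RING1 of the short list, from 9556 bp before to 8229 bp after for RNF2 of the long list, and from 6672 bp before to 6380 bp after for RNF2 of the short list. The long lists each held a further, weaker peak inside the gene, of 256 bp for RING1 (7812 to 8067 bp after the start) and of 1385 bp for RNF2 (10077 to 11461 bp after it). The main peaks of RING1 in the long list and of RNF2 in the short list thus ended within 100 bp of each other on both sides. NEUROD1 was the only one of the 8 members with an entry in the promoter table whose start lay under a RING1 peak of the short list, as 0.404% of all such gene starts did.

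NEUROD2, on chromosome 17 (39603768 to 39607920), acts in cortical projection neurons, and its peaks lay over the gene and downstream of it. RING1 reached 4.58-fold in the long list, and RNF2 6.29-fold (long) and 4.31-fold (short). RNF2 of the long list started 945 bp before the gene start and ran to 12492 bp after it, past the end of a gene of 4153 bp. RNF2 of the short list began 907 bp inside the gene and left the start uncovered. NEUROD6, on chromosome 7 (31337465 to 31340726), also acts in cortical projection neurons, and had short RNF2 peaks and no RING1. The RNF2 peak of the long list was 445 bp wide with a fold enrichment of 3.67, and that of the short list was 720 bp wide with 3.80. They lay 3787 to 4231 bp and 3389 to 4108 bp from the start, past the end of a gene of 3262 bp, and overlapped each other. The fold of the long list was reached by 79.2% of all genes with an RNF2 peak.

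NEUROD4, on chromosome 12 (55019974 to 55030017), takes part in the making of retinal amacrine cells, as known from mouse, and had no peak. The nearest peaks were 432 kb away for RING1 of the long list, 939 kb for RING1 of the short list, 470 kb for RNF2 of the long list and 601 kb for RNF2 of the short list. Its neighbourhood was sparse in peaks: of 19 protein-coding genes within 500 kb, 1 had RING1 of the long list, 2 had RNF2 of the long list and 0 had a peak in either short list. Of these 19 genes, 12 bear olfactory receptor symbols. Around NEUROD6, 1 of 7 genes within 500 kb carried RING1 of the long list, 3 carried RNF2 of the long list and 0 carried a peak of either short list. Around NEUROD2, 17 of 27 genes carried RING1 of the long list and 21 carried RNF2 of the long list. In the same order, the counts were 4 and 5 of 9 genes around NEUROG1, 6 and 7 of 7 around NEUROG2, and 6 and 8 of 10 around NEUROG3. They were 3 and 4 of 5 around NEUROD1, 2 and 2 of 3 around ATOH1, and 3 and 5 of 5 around PTF1A. Over all genes these shares were 50.5% and 60.7%, and no test was made of the differences. In the short lists they were 1.58% for RING1 and 25.2% for RNF2, so 0 for RING1 is near the share of all genes.

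**Figure D3:**
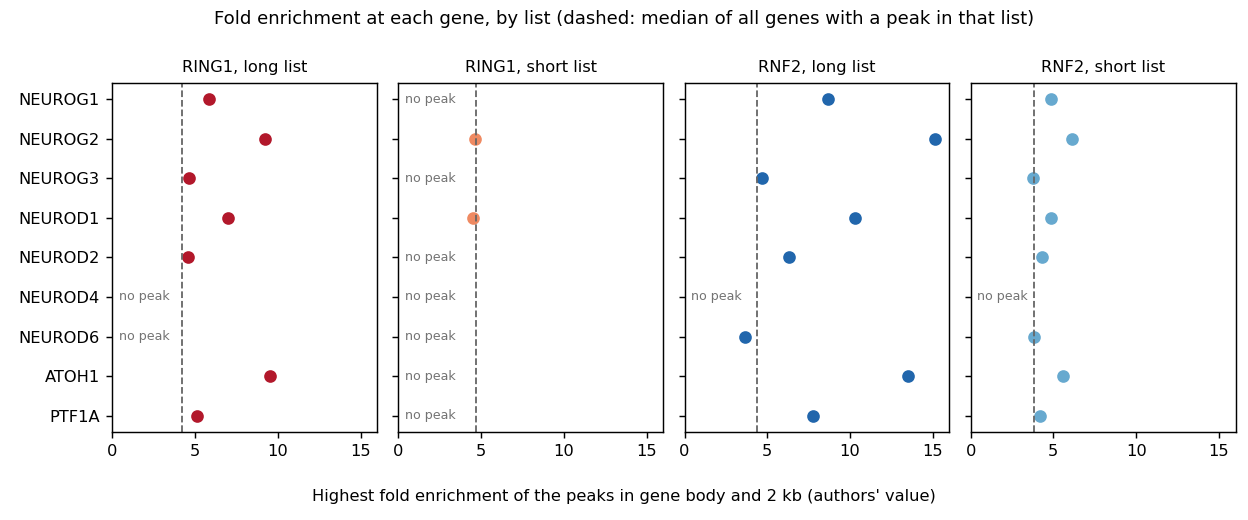
Highest fold enrichment of the peaks in each gene's window, as the authors' peak caller gave it, with 1 panel per list and 1 point per gene. The dashed line is the median over all protein-coding genes with a peak in that list. NEUROG2 and ATOH1 lie farthest right in RING1 of the long list and in both RNF2 lists, and NEUROG3 and NEUROD6 lie near the dashed lines.

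The order of the members by fold enrichment was alike at its top in 3 lists. ATOH1 and NEUROG2 led RING1 of the long list, and NEUROG2 and ATOH1 led both RNF2 lists, followed by NEUROD1 and NEUROG1 in RING1 and RNF2 of the long list and by NEUROG1 and NEUROD1 in RNF2 of the short list. PTF1A, NEUROD2, NEUROG3 and NEUROD6 came after them, and neighbours in that order changed places between lists, as NEUROD2 and PTF1A did between the long RNF2 list (6.29 and 7.73) and the short one (4.31 and 4.21). Each list gives 1 value per gene, so the spread of a single value is not known. Among the members with a peak, the median fold was 5.82 for RING1 of the long list, 8.21 for RNF2 of the long list and 4.57 for RNF2 of the short list, and all genes with a peak had medians of 4.20, 4.35 and 3.81. In RING1 of the short list the 2 values, 4.64 and 4.50, lay below the median of 4.68 of all genes with a peak. By the rank of the highest fold in the 4 lists, the protein-coding genes nearest to the members' median profile were SETD1B, LBX2, THAP7, PTPRH and MMS19. Their distances were 2.36 to 3.66 percentage points of rank. They had RING1 in the long list, RNF2 in both lists and no RING1 in the short list, a pattern that follows from how they were picked.

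RING1 peaks lay within RNF2 peaks. In the members' windows, all 9 RING1 peaks of the long list and all 3 of the short list were contained in an RNF2 peak of the list with the same number. The share of all RING1 peaks so contained was not computed. Base by base, 100% of the 42970 RING1 bases of the long list and of the 2546 of the short list in these windows were under RNF2, against 87.0% and 91.0% over the windows of all protein-coding genes. In the other direction, RING1 covered 86.7% (long lists) and 7.14% (short lists) of the members' RNF2 bases, against 54.8% and 9.29% over all genes. The members' RNF2 peaks were wider than most, and the part of width in these shares was not tested. Between the RNF2 lists, all 8 RNF2 peaks of the short list overlapped one of the long list, and 6 of them lay entirely inside it. Over all protein-coding genes, 4784 of the 5055 with RNF2 in the short list had it in the long list too. This is a count of genes, whose peaks need not overlap, and is not the same measure as the overlap of peaks. The authors' consolidated regions, which carry no measurement, overlapped the windows of 8 of the 9 members, NEUROD4 being the exception, against 22.8% of all genes. All 4255 of these regions overlapped RNF2 peaks of the long list, 4239 those of the short list and 3849 RING1 peaks of the long list. At NEUROG3 the region ended where a RING1 peak of the long list ended, past the RNF2 peaks. The regions thus overlap the peak lists described here and are no separate evidence. At NEUROD6 the region lay past the gene body. These regions were 11332 to 19785 bp wide at the 7 genes with wide peaks and 844 bp at NEUROD6, against a median of 2100 bp over all consolidated regions.

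The members' promoters differed widely in CpG content. In the 250 bases before the start, the 8 members with an entry had 30 (NEUROG1), 25 (NEUROG3), 24 (NEUROD1), 18 (ATOH1), 12 (NEUROD2), 7 (NEUROG2), 6 (NEUROD4) and 4 (NEUROD6) CpG dinucleotides. PTF1A had no entry. The median over 15841 protein-coding promoters was 17. NEUROD4 and NEUROD6, whose starts lay under no peak, had the lowest counts. NEUROG2 had 1 CpG more than NEUROD4 and the highest RNF2 fold of the members. CpG content was counted in these 250 bases only and not under the rest of the peaks, and its link with the peaks was not tested. Among all promoters, the share of starts under an RNF2 peak of the long list was 5.65% with 0 to 4 CpG, 20.5% with 5 to 9 and 69.4% with 25 or more. Starts of 6 of the 8 members lay under RING1 and under RNF2 of the long lists, against 31.5% and 45.0% of all gene starts in the table, and 4 lay under RNF2 of the short list, against 12.6%. The motif CANNTG, which reads the same on both strands, occurred in 5 of the 8 member promoters and in 57.8% of all promoters, with 4 matches in NEUROD6, 3 in NEUROD2, 2 in NEUROD4 and 1 each in NEUROG3 and ATOH1. A match is a run of letters and not a bound site.

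**Figure D4:**
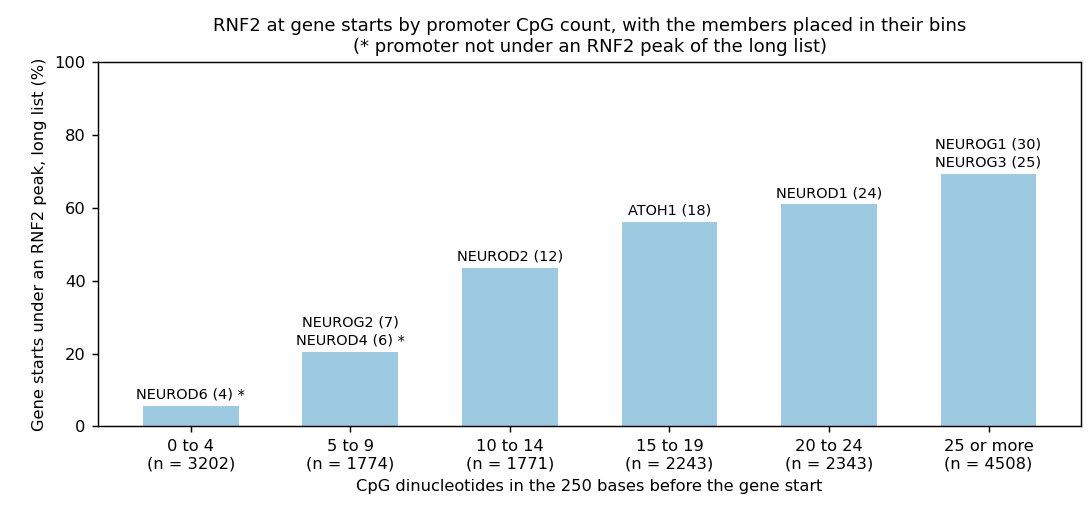
Share of gene starts under an RNF2 peak of the long list, in percent, by the number of CpG dinucleotides in the 250 bases before the start, over 15841 protein-coding promoters. Member genes are written above the bar of their bin with their CpG count, and an asterisk marks a promoter outside RNF2 peaks. NEUROG2 (7 CpG) and NEUROD4 (6 CpG) share a bin and differ in their peaks.

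Genes that work with the proneural factors were described through lists, whose counts stand against 50.5% (RING1, long list), 1.58% (RING1, short list), 60.7% (RNF2, long list) and 25.2% (RNF2, short list) of all genes. Of 17 other bHLH genes, listed as neural although not all of them are neural factors, RING1 was at 12 (long list) and 4 (short list). RNF2 was at 12 (long) and 11 (short). BHLHE22, a factor of cortical and retinal neurons, had RNF2 at 13.0-fold (long list) and 8.42-fold (short list). OLIG3 and OLIG2, progenitor factors of the spinal cord, had RNF2 at 16.9-fold and 10.1-fold in the long list and at 6.22-fold and 5.12-fold in the short list. ASCL3, ASCL5, NHLH1, BHLHA15 and TAL2, named after their values were seen, had no peak in any list. They are 5 of the 17 genes, or 29.4%, near the 35.3% of all genes without a peak. The 3 E proteins (TCF3, TCF4 and TCF12) all had peaks of both antibodies in the long lists and no RING1 in the short one. RNF2 of the short list was at 2 of them, TCF4 and TCF12. Longer genes have longer windows, and the counts were not adjusted for gene length. Their RNF2 fold enrichments of the long list were 4.33, 3.70 and 5.10, on either side of the median of all genes with a peak.

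Of 14 inhibitors of proneural factors, the ID genes and the HES and HEY genes of Notch signalling, RING1 was at 11 (long list) and 0 (short list) and RNF2 at 12 (long) and 8 (short). Of the 3 named by rule, HEY2 had RNF2 at 9.26-fold, HES7 at 5.98-fold and HES6 at 5.88-fold in the long list. In the short list HES6 had the highest RNF2 fold of the 3, at 6.60-fold, above the 6.13-fold of NEUROG2, with HEY2 at 5.28-fold and HES7 at 4.28-fold. HES2 and HES5, named after their values were seen, had no peak in any list. Of 26 targets and downstream factors, RING1 was at 21 (long list) and 11 (short list) and RNF2 at 22 (long) and 19 (short). The 3 named by rule were POU4F1, a factor of sensory neurons, TBR1, a factor of cortical projection neurons, and BARHL2, a homeobox gene of spinal and retinal neurons. They had RNF2 at 15.7-fold, 17.2-fold and 17.8-fold in the long list and 9.42-fold, 9.18-fold and 8.01-fold in the short list. These values were above NEUROG2 in each list, but the rule favours genes with a high RNF2 fold. The Notch ligand genes differed. DLL3 had RING1 at 6.30-fold in the long list, and RNF2 at 7.80-fold (long) and 4.49-fold (short). DLL4 had RING1 at 5.32-fold in the long list, and RNF2 at 6.66-fold (long) and 5.18-fold (short). DLL1 had no peak in any list, nor did LHX1, PAX4 and RBPJL, and all 6 were named after their values were seen.

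**Figure D5:**
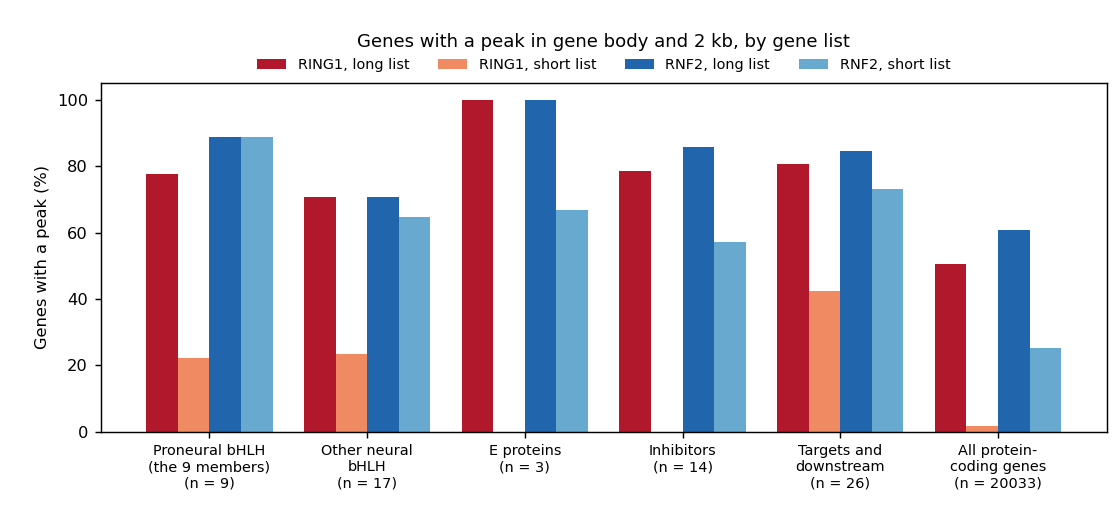
Percent of genes with a peak in the gene body with 2 kb on both sides, by gene list and peak list, for the 9 members, 4 lists of related genes and all 20033 protein-coding genes. RNF2 of the short list is at 88.9% of the members and 25.2% of all genes, and RING1 of the short list is at 22.2% and 1.58%.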

How the data were processed

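Libraries came from a commercial CUT&RUN kit and an Illumina NextSeq run, per the labels' protocols. Build hg38 is named in the submitters' processing notes, with MACS2 2.2.9.1, deepTools 3.5.2, bedtools 2.30.0, Picard 2.8.1, SAMtools 1.9 and BWA 0.7.17, but no roles. Which control the peak caller used is not given in these sources. The deposited lists, in broad peak format, give a fold enrichment per peak (a ratio over background) and a −log10 of the q-value. Each was taken as called on 1 library, since its name shows 1 antibody and 1 number. The other columns were not used. Of 30 samples, 26 were not analysed here.

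Only peaks on the autosomes, X and Y entered. A gene had a peak where at least 1 bp was shared with its RefSeq gene body (GRCh38.p14, the assembly behind hg38) extended by 2 kb, and its fold was that of the highest peak. Strand and starts came from the RefSeq promoter table, with 15841 protein-coding entries. Protein sequences, planned for comparison, were not used here. The members and lists were chosen with earlier results of these data known. All 9 members are named; of each list of related genes, 3 are named by the number of lists with a peak and then by the smaller RNF2 fold, and the 5 genes most alike are those nearest in rank of fold. No test was run: all results are descriptions. The overlap step was tested on simulated data with 200 planted genes per run among 20033, and 100% were recovered. Alternatives were windows of 1 kb and 5 kb or around the gene start, a −log10 q cut of 2 or 5, lists of 659 peaks each, an overlap of at least 500 bp, the peak with most bases in place of the highest, and each pair of lists left out. Python 3.11.15, numpy 2.4.6, pandas 2.3.3 and matplotlib 3.10.9 were used.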

Additional observations from a re-analysis of the deposited data

How the results depend on the processing

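The counts of members, like the shares of all genes, rested on the length of the lists and on weak peaks. Peaks with a −log10 q of 5 or more left RING1 at 4 members in the long list and 0 in the short list (0 in both and 0 in all 4 lists), and RNF2 at 6 in the long list and at 2 in the short list and in both (NEUROG2 and ATOH1). Of all genes, these peaks left RING1 at 8.74% (long list) and 0.0349% (short list), and RNF2 at 17.1% (long) and 2.71% (short). With 659 peaks per list, taken by significance, RING1 was at 3 members in the long list, and RNF2 at 4 in the long list, 4 in the short list and 4 in both (NEUROG1, NEUROG2, NEUROD1 and ATOH1). The shares of all genes were then 3.93% for RING1 of the long list, and 4.15% (long list) and 3.78% (short list) for RNF2. Under these 2 cuts, shares of all genes in both lists were not computed. With the long or the short lists left out, the count is that of the list kept, so it repeats the counts above and is no further check. For RING1 it was 2 to 7, against 1.58% to 50.5% of all genes. That for RNF2 was 8 to 8, against 25.2% to 60.7% of all genes. Windows of 5 kb added ATOH1 to the short RING1 list (3 members, against 1.78% of all genes). Windows of 2 kb around the start, a −log10 q of 2 or more in the short list, or an overlap of at least 500 bp in the long list, removed the RNF2 peak of NEUROD6. The median share of a member's window under peaks, 76.8% for RING1 and 100% for RNF2 of the long lists and 51.7% for RNF2 of the short list, was 91.8%, 100% and 64.5% with windows of 1 kb and 55.9%, 77.7% and 51.2% with 5 kb. The share of RNF2 bases under RING1 was 80.6% (long lists) and 8.49% (short lists) with windows of 5 kb, and 86.5% and 5.89% with a −log10 q of 2 or more. A single fold moved, again with 5 kb, where RING1 of the long list at NEUROG1 became 7.75 by taking in its upstream peak. Beyond the construction of each setting, the cause was not tested. No paired analysis was possible because the results come from no test or fit over libraries, to which a replicate block could be added. RING1 and RNF2 lists were matched by their shared number only to describe overlaps. Depth is unknown, so what a deeper library would add to the short lists cannot be told.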
